A study of Mus musculus with 10 samples.

Results

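The genes described here encode parts of the cornified envelope, and they were followed in mouse liver after an overdose of acetaminophen (APAP, a pain and fever drug that injures the liver at high dose). The members are 9 genes: loricrin (Lor), the small proline-rich genes Sprr1a, Sprr1b and Sprr2a1, and the late cornified envelope genes Lce1c, Lce1d, Lce1f, Lce1g and Lce1i. They were taken by gene name from the arrays, which gave 11 probes among 39429 probes and 31539 gene names in all. These genes were chosen by their measured ratios of treated over control liver at 3 to 72 h. Those ratios are therefore given as a description, with no test.

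RNA came from livers of female C57BL/6 mice aged 8 weeks that had been fasted for 24 h. The treated mice received a single intraperitoneal dose of 350 mg/kg APAP in phosphate-buffered saline (PBS), and the control mice received PBS alone. Livers were taken at 3, 8, 24, 48 and 72 h, with 2 arrays per time point. Each array carried a treated liver in the Cy5 channel and a control liver of the same time point in the Cy3 channel. Treated liver was in Cy5 on all 10 arrays, and at a single time point a preference of a probe for a dye cannot be told apart from treatment. The labels number the mice of each time point, and p-values measure only the spread between these samples.

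The cornified envelope is the cross-linked protein shell that replaces the plasma membrane of keratinocytes as they die at the skin surface. Transglutaminases join loricrin, the most abundant envelope protein of the epidermis, to small proline-rich (SPRR) bridging proteins and late cornified envelope (LCE) proteins. The genes lie together in the epidermal differentiation complex, and most of them are not typical of healthy liver. Several SPRR genes, Sprr1a among them, are also known to be induced outside the skin by stress and injury.

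Lor was the member with the largest ratio. Its 60-base probe lies on chromosome 3 (mm9), minus strand, and its last 30 bases are shown with the AATAAA letters of a polyadenylation signal in capitals, at chr3:91884206-91884235.
Lor probe: attctagtgtctcctcagtcAATAAAtttg
The log2 ratios of APAP over control for the first and second array were 0.11 and 0.24 at 3 h, 1.37 and 2.16 at 8 h, 4.0 and 3.48 at 24 h, 1.74 and 2.83 at 48 h, and -0.21 and -0.10 at 72 h. The second array of a time point was always scanned on the second scan day. The 24 h ratios lay above those of every other time point on both scan days, and the 8 h and 48 h ratios overlapped. The mean ratios were 3.39-fold at 8 h, 13.4-fold at 24 h and 4.87-fold at 48 h (log2 means 1.76 ± 0.56, 3.74 ± 0.36 and 2.28 ± 0.77, SD, n = 2). In the order of the mean log2 ratios over all 29623 probes kept by the filter on dim probes, Lor was number 3 at 24 h.

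The raw mean signal of the Lor probe at 24 h was 2317 and 5013 units in the APAP channel, against 389 and 441 units in the control channel. At 3 h the same signals were 71.3 and 170.0 units in the APAP channel, against 107 and 202 units in the control channel. Before any normalization, the treated signal thus exceeded the control signal on both 24 h arrays and was below it on both 3 h arrays. The probe was well above background in the control channel on all 10 arrays and in the APAP channel on 9 of 10. In whole liver RNA, more cells that hold a transcript cannot be told apart from more of it per cell, here and in all that follows.

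Sprr1a encodes a small proline-rich bridging protein of the envelope that is also known from regenerating neurons and stressed heart muscle. The first 30 bases of its probe lie at chr3:92287985-92288014 (mm9, minus strand).
Sprr1a probe: gctcctgagcctcttaacattgcccaaagt
Its log2 ratios were -0.07 and -0.12 at 3 h, 1.24 and 1.37 at 8 h, 2.84 and 2.35 at 24 h, 2.22 and 1.97 at 48 h, and 0.75 and 0.65 at 72 h. The time points fell in the order 24, 48, 8, 72 and 3 h, and neighbours in that order did not overlap. The mean ratios were 2.47-fold at 8 h and 6.03-fold at 24 h, followed by 4.27-fold at 48 h and 1.63-fold at 72 h (log2 means 1.30 ± 0.09, 2.59 ± 0.35, 2.09 ± 0.18 and 0.70 ± 0.07, SD, n = 2). Among the members, Sprr1a and Lor were the pair with a log2 ratio above 1 on both arrays at 8 h and again at 48 h. At 72 h the mean log2 ratio of Sprr1a was 0.70 and that of Lor was -0.15.

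The probe of Sprr1b, the close relative of Sprr1a (chr3:92240731-92240790, mm9, minus strand), stayed dim. Its log2 ratios at 24 h were 0.28 and 0.29, and at the other times the 8 values lay between 0.02 and 0.14. It was well above background on 2 of 10 arrays in each channel and was not kept. The Sprr2a1 probe (chr3:92027346-92027405, mm9, plus strand) was well above background on 0 of 10 arrays in either channel, and its 24 h log2 ratios were -0.04 and 0.02. Its own annotation is a cDNA clone, while the Sprr2a1 transcript is listed by the 3 probes named for Sprr2a2. Of these 3, a single probe was kept, well above background on all 10 arrays in both channels, with a mean log2 ratio of 0.01 at 24 h. That probe shares a run of 31 bases with a probe named NAP061860-1, and signal of another transcript on it cannot be told apart from that of Sprr2a2. The 24 h ratio of Sprr1b depends on the background correction: its mean was 1.12 with normexp offset 0 and 1.98 with the scanner software's ratio, against 0.29 here, and at 24 h it was well above background on the second array alone. A change of Sprr2a1 was not detectable with its probe.

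**Figure D1:**
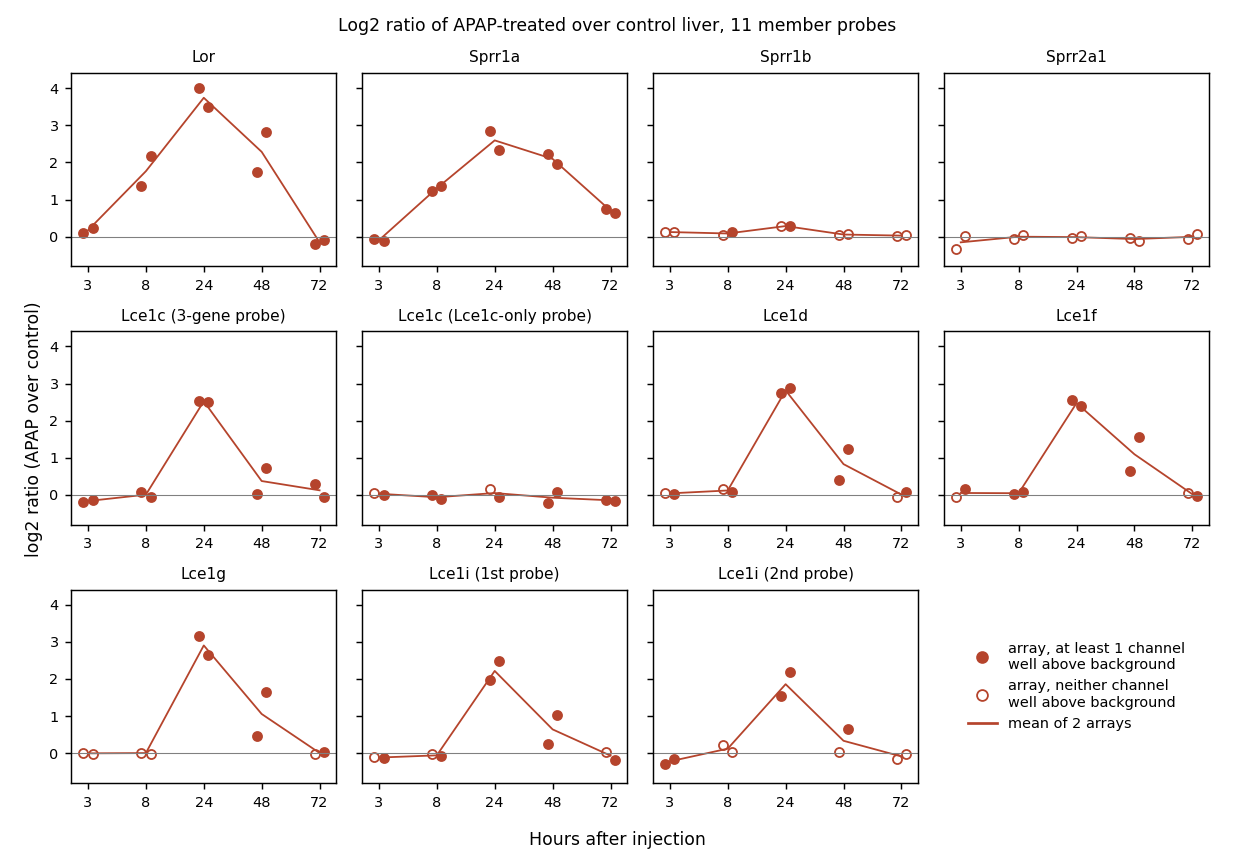
Log2 ratio of APAP-treated over control liver (vertical axis) against hours after injection (equally spaced), 1 panel per member probe, with 2 arrays per time point and a line through their means. Open circles mark arrays on which neither channel was well above background. Lor and Sprr1a were above 0 from 8 to 48 h, whereas the LCE panels peaked at 24 h and the Sprr1b, Sprr2a1 and Lce1c-only panels stayed near 0.

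The LCE members encode small cysteine-rich proteins laid down late in envelope assembly. For Lce1d the log2 ratios were 2.74 and 2.89 at 24 h and 0.41 and 1.25 at 48 h. Lce1f stood at 2.54 and 2.40 at 24 h and at 0.64 and 1.55 at 48 h, and Lce1g at 3.17 and 2.63 at 24 h and at 0.47 and 1.64 at 48 h. For all 3 genes the 24 h ratios exceeded the 48 h ratios, and at 48 h the second array was the higher. Their 24 h means were 7.04-fold for Lce1d, 5.55-fold for Lce1f and 7.47-fold for Lce1g (log2 means 2.81 ± 0.11, 2.47 ± 0.10 and 2.90 ± 0.38, SD, n = 2). At 3 and 8 h their 12 log2 ratios lay between -0.07 and 0.17, where the Lce1g probe was not well above background in either channel. Over 12 other settings the 24 h mean lay between 2.17 and 3.1 for Lce1d, 1.87 and 2.81 for Lce1f and 2.22 and 3.81 for Lce1g, and that of Lce1d at 48 h between 0.72 and 2.45. Other filters and blocks do not enter a mean ratio. These ranges, here and below, therefore come from background corrections, median centring and the scanner software's ratio.

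Lce1i is read by a pair of probes. The brighter of them (chr3:92581159-92581218, mm9, minus strand) had log2 ratios of 1.96 and 2.47 at 24 h and 0.24 and 1.04 at 48 h. The dimmer (chr3:92581269-92581328) had 1.53 and 2.19 at 24 h and 0.03 and 0.65 at 48 h. Both probes peaked at 24 h with overlapping values (log2 means 2.22 ± 0.36 and 1.86 ± 0.46, or 4.64-fold and 3.63-fold, SD, n = 2). Over 12 other settings these means lay between 1.72 and 2.78 for the brighter and 1.25 and 3.49 for the dimmer probe. The control channel of the dimmer probe was not well above background on either 48 h array, and its APAP channel was on the second array alone. Its 48 h mean of 1.26-fold thus includes an array on which neither channel was well above background. At 3 h its APAP channel was not well above background, and the control channel was at least 1.07-fold brighter.

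The pair of probes named for Lce1c disagreed. The first 30 bases of the probe that the array design assigns to Lce1c, Lce1e and Lce1f transcripts (chr3:92484400-92484429, mm9, plus strand) and of the probe it assigns to Lce1c alone (chr3:92484714-92484743, plus strand) are shown because the 24 h result depends on which is read.
Lce1c, Lce1e and Lce1f probe: agctcagggggtggaggctgctgcttgagc
Lce1c-only probe: tcttcggtccttcatgtcttcatctgtgaa
The 3-gene probe had log2 ratios of 2.54 and 2.50 at 24 h (mean 2.52 ± 0.03, SD, n = 2, 5.75-fold) and 0.03 and 0.72 at 48 h, and its 24 h mean lay between 1.76 and 3.61 over 12 other settings. The Lce1c-only probe had 0.15 and -0.05 at 24 h and -0.22 and 0.07 at 48 h. It was well above background on 6 of 10 arrays in the APAP channel and 8 of 10 in the control channel. At 24 h that held for the second array alone. A change of Lce1c itself was thus not detectable with its own probe, and the ratio of the 3-gene probe cannot be assigned to a single gene.

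Across the whole set, 9 probes of 7 genes passed the filter, and Sprr1b and Sprr2a1 did not. With limma over all probes, at an adjusted p under 0.05, the calls of a higher level in APAP liver covered 0 of 9 member probes at 3 h (2.24% of all probes), 2 probes at 8 h (7.37%), 8 probes at 24 h (7.53%), 6 probes at 48 h (19.3%) and 0 probes at 72 h (0.00675%). No member probe was called lower at any time, against 2.82%, 8.22%, 12.1%, 14.1% and 0.00675% of all probes in the same order. Because the same ratios chose the genes, nothing is read from these counts. Without the second 8 h array 1 member probe was called at 8 h, and without the second 48 h array 3 were called at 48 h. The median log2 ratio of the 9 probes was 2.52 at 24 h and 0.83 at 48 h, while the median over all probes was -0.01 at both times. At 8 h the member median was 0.05, since Lor and Sprr1a stood apart from the LCE probes.

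Over the 10 arrays, the log2 ratios of Lor and Sprr1a had a Pearson correlation of 0.90. Those of the Lce1d, Lce1f, Lce1g and brighter Lce1i probes correlated at 0.97 to 0.99 with each other. The same probes correlated at 0.77 to 0.81 with Sprr1a and at 0.85 to 0.89 with Lor. These values describe 10 arrays at 5 time points that share slides and dye orientation.

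Some of these probes are close in sequence to a neighbouring gene's probe. The dimmer Lce1i probe and the Lce1h probe are identical at 56 of 60 bases, and the first 30 bases are shown with the differing letters in capitals (mm9, minus strand, chr3:92581299-92581328 and chr3:92567302-92567331).
Lce1i: aagacttcaGacaaatAgtgcaggaggagc
Lce1h: aagacttcaAacaaatGgtgcaggaggagc
Counted from 1 at the 5′ end, with the Lce1i base first, the 4 differences over the whole probe are G10A, A17G, C47A and A58G, and the longest shared run is 29 bases. At 24 h the log2 ratios were 1.53 and 2.19 for this Lce1i probe and 0.86 and 1.62 for the Lce1h probe. The ranges overlapped, and signal of one transcript on the other's probe cannot be told apart from a ratio of its own.

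The Lce1d probe and the brighter Lce1i probe share 46 of 60 bases at the same offset. Bases 31 to 60 are shown in the same way (mm9, minus strand, chr3:92489446-92489475 and chr3:92581159-92581188).
Lce1d: gaGaTgacaatgccTCtttgcAtctttgtt
Lce1i: gaAaCgacaatgccCAtttgcCtctttgtt
In this window 25 of 30 bases are identical. With probes of another name on the array, those of Lor and Lce1d share no run of more than 14 bases, and those of Sprr1a and Lce1f none of more than 13. Matches to transcripts outside the array were not analysed here.

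The other SPRR and LCE genes of the same region were read from lists that hold no member. Among 9 kept probes of other SPRR genes, 3 rose and 0 fell at 24 h with limma, against 7.53% and 12.1% of all probes, and the list median log2 ratio was 0.23 against -0.01 over all probes. Sprr2i, Sprr2g and Sprr2e were well above background on both arrays in a channel at 24 or 48 h alone. They thus passed the filter only through times at which they were high. This count and the adjusted p-values of these probes therefore describe the kept probes, and test neither the list nor these genes. Sprr2i had 3.74 and 3.45 (mean 3.60, SE 0.19, adjusted p = 1.93e-05, 12.1-fold). Its mean control level was 6.13 at 24 h, against 5.96 at 3 h, where it was not well above background. The fold thus rests on a control signal close to background. Sprr2g had 2.26 and 1.47 (mean 1.86, SE 0.27, adjusted p = 0.00195), and Sprr2f had 1.11 and 0.63 (mean 0.87, SE 0.13, adjusted p = 0.00227). Both arrays were above 0 for all 3 genes. Without the first 24 h array the call was that of Sprr2i alone (1 probe), with Sprr2g at an adjusted p of 0.0621 and Sprr2f at 0.0557. Sprr2e, at 0.45 and 0.38, did not pass at 24 h (adjusted p = 0.0631) but did at 48 h, with 0.18 and 0.79 (mean 0.49, limma adjusted p = 0.0225, and 0.348 without the second 48 h array).

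Sprr2i was dim outside this window. At 48 h its mean log2 ratio was 1.23 (limma adjusted p = 0.00165), with the control channel not well above background, which gives at least 2.34-fold. At 3, 8 and 72 h neither channel was well above background on any array. The remaining kept SPRR probes, which read Sprr2a2, Sprr2d, Sprr2j-ps, Sprr3 and Sprr4, were not called at any time.

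Among 11 kept probes of other LCE genes, 5 rose and 0 fell at 24 h, with a list median of 0.61. Lce1h passed the filter through its APAP channel at 24 h alone. This count and the adjusted p of Lce1h too describe the kept probes, and test neither the list nor that gene. The largest were Lce3c at 3.73 and 2.66 (mean 3.19, SE 0.22, adjusted p = 5.75e-05, 9.16-fold) and Lce3b at 3.20 and 2.37 (mean 2.79, SE 0.21, adjusted p = 8.39e-05, 6.89-fold). Lce1e followed at 1.52 and 1.90 (mean 1.71, SE 0.10, adjusted p = 3.01e-05) and Lce1h at the values given above (mean 1.24, SE 0.17, adjusted p = 0.00144). The Lce1b probe, printed as 10 spots on each array, averaged 0.66 ± 0.13 and 0.95 ± 0.08 (SD between spots) at 24 h, with an adjusted p of 0.00255.

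Lce3c and Lce3b also rose at 48 h, where their mean log2 ratios were 2.57 (limma adjusted p = 0.000116) and 1.93 (limma adjusted p = 0.00031), unlike Lce1e at 0.15 (adjusted p = 0.283). The Lce3b and Lce3c probes are themselves alike, with 54 of 60 bases in common and 6 differences. Bases 26 to 55 are shown, with the differing letters in capitals (mm9, plus strand, chr3:92737897-92737926 and chr3:92749531-92749560).
Lce3b: tttGtctgatcctggaCaCCcttctctgAT
Lce3c: tttAtctgatcctggaGaGTcttctctgCC
Members of the LCE family on either side of these genes did not pass the test at 24 h. The log2 ratios there were 0.18 for Lce1a1, 0.06 for Lce1k, 0.13 for Lce1l and 0.04 for Lce1m (adjusted p = 0.216, 0.711, 0.334 and 0.907 with limma). The pair of Lce1a2 probes stood at 0.61 and 0.12 (adjusted p = 0.194 and 0.633). At 3 and 8 h the second of these was the 1 other LCE probe called, at 0.58 and 0.72 (limma adjusted p = 0.0447 and 0.00907).

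**Figure D2:**
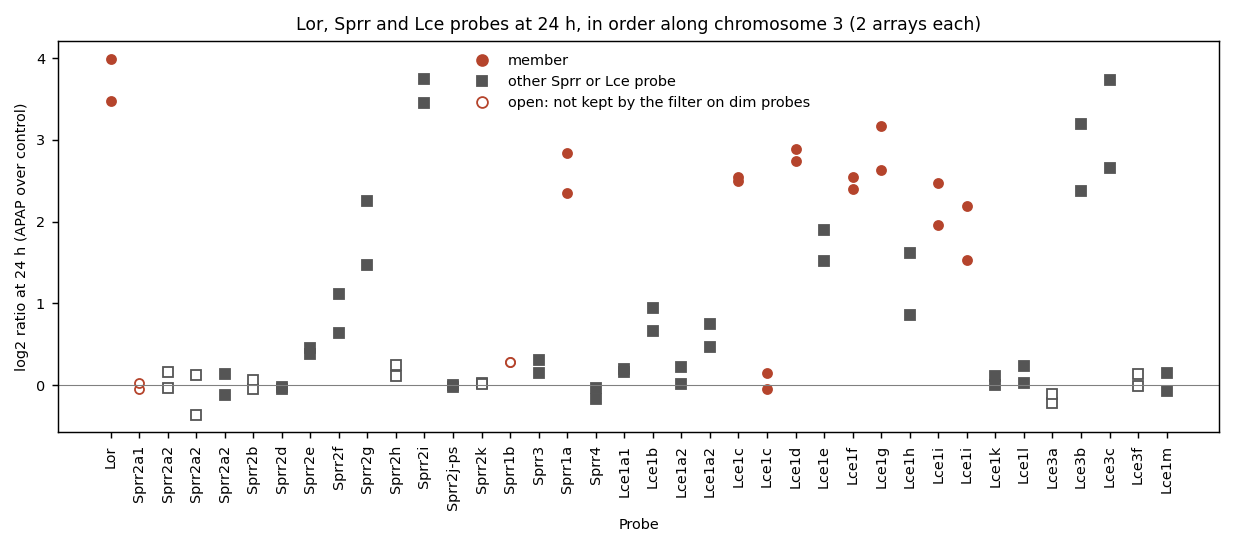
Log2 ratio of APAP-treated over control liver at 24 h (vertical axis) for every Lor, SPRR and LCE probe in their order along chromosome 3 (horizontal axis, not to scale), with 2 arrays per probe. Circles are members, squares are other genes of the region, and open symbols were not kept by the filter on dim probes. High and near-zero probes alternate along the region, with Lor at 4.0 and 3.48, Sprr2i at 3.74 and 3.45 and the Lce1c-only probe at 0.15 and -0.05.

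The control livers were then examined in the Cy3 channel after loess and Aquantile scaling. Both steps use the 2 channels of an array, so that the APAP signal enters the scaling of the control levels. This contrast was not the ratio by which the members were chosen, although the Cy3 values are also the denominator of that ratio. A moderated F test of limma over the 5 time points called 738 of 29623 probes (2.49%) and 4 of 9 member probes. These were Sprr1a (adjusted p = 0.000374), Lce1d (adjusted p = 0.00117), Lce1g (adjusted p = 0.0247) and Lce1f (adjusted p = 0.0378). Lor (adjusted p = 0.11), both Lce1i probes (0.0636 and 0.28) and both Lce1c probes (0.87 and 0.843) did not pass. Without either 3 h array, the first 24 h array or either 72 h array, 2 member probes passed the F test, Lce1d and Sprr1a, and over all probes between 60 and 616 did when any single array was left out.

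Control livers at 24 h had higher levels than control livers at 3 h for 5 of 9 member probes, against 1.31% of all probes. The Lce1d, Lce1g and brighter Lce1i probes passed the filter through 24 and 48 h alone, where they were high. This count and that of the F test therefore describe the kept probes and do not test the set. With no filter, Lce1d, Lce1f, Lce1g and Sprr1a were called higher at 24 h. In raw Cy3 signal, without scaling, Lce1d, Lce1f and Sprr1a were called, and Lce1g and Lce1i were not. The control log2 level of Sprr1a was 10.23 and 10.02 at 24 h, against 7.19 and 7.09 at 3 h (difference 2.99, SE 0.12, limma adjusted p = 0.000103). That of Lce1d was 9.35 and 8.91 at 24 h, against 6.03 and 6.12 at 3 h (difference 3.05, SE 0.17, adjusted p = 0.000357). The groups did not overlap for either gene, and the difference was present on both scan days. Among all kept probes, Lce1d and Sprr1a were numbers 13 and 15 in the order of this difference. In raw Cy3 signal, Sprr1a read 1483 and 1234 units at 24 h, against 116 and 190.0 units at 3 h, and Lce1d read 806 and 567 units, against 34.6 and 52.9 units.

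The other called control differences of 24 h over 3 h were 2.02 for Lce1f (SE 0.30, adjusted p = 0.0177) and 1.26 for the brighter Lce1i probe (SE 0.24, adjusted p = 0.0424), both with limma. Lce1g, whose control channel was not well above background on either 3 h array, was called too (limma adjusted p = 0.0116), at least 1.90-fold higher at 24 h. Without either 3 h array, or without the first 24 h array, the calls were those of Lce1d and Sprr1a, 2 in number. With the slide as a fixed block, the calls were 4, without Lce1f, and the F test called Sprr1a alone. The control level of Lor was 8.34 and 8.57 at 24 h, against 7.12 and 7.10 at 3 h (difference 1.34, SE 0.31, adjusted p = 0.0777). Lor did not overlap between these times either, but its difference did not pass the test. With the scan day as a block it passed (adjusted p = 0.024), and 6 member probes were then called both here and in the F test, Lor among them. Without the first or the second 72 h array Lor was called as well (limma adjusted p = 0.0349 and 0.0305), which made 6 member probes. The brighter Lce1i probe was not called when any array of 3, 8 or 24 h was left out.

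At 48 h Sprr1a was the 1 member probe called higher in control livers, at 8.55 and 8.51 (difference from 3 h of 1.39, SE 0.12, limma adjusted p = 0.0111, against 2.1% of all probes). At 8 and 72 h no member was called higher, against 0% and 0.368% of all probes. Outside the set, Lce3c (difference 1.33, adjusted p = 0.0127) and Lce1e (1.12, adjusted p = 0.0216) were also higher in control livers at 24 h than at 3 h. Sprr2i, with a mean APAP-over-control ratio of 3.60 at 24 h, did not pass in the same control comparison (adjusted p = 0.601), with a control channel not well above background at 3 h.

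Because these control levels enter the denominator, the channels are given side by side. The mean log2 level of Lor at 24 h minus that at 3 h was 4.91 in APAP livers and 1.34 in control livers, and that of Sprr1a was 5.67 in APAP livers and 2.99 in control livers. For Lce1d, whose APAP channel was not well above background on either 3 h array, the difference was at least 5.70 in APAP livers, and it was 3.05 in control livers. Of all Lor, SPRR and LCE probes, 9 had a difference of at least 3 in the APAP channel, and their control differences had a median of 1.33 (0.18 to 3.05), 7 of them at least 1. Among 40 other probes with such a difference in the APAP channel, the control differences had a median of 1.12 (-1.01 to 5.76), 22 of them at least 1. In the APAP channel 3 of the 9 and 6 of the 40 were not well above background at 3 h. Against that limit, all 3 and 4 of the 6 still differed by at least 3. In the control channel 2 of the 9 and 7 of the 40 were not well above background at 3 h, so that their control differences are against a level at background. Examples from the 40 were Serpina4-ps1 at 5.76, Gsta1, a glutathione transferase gene, at 3.11, and S100a9, a neutrophil gene, at 2.86. The part of the array, its dyes or the control animals in this difference was not tested.

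**Figure D3:**
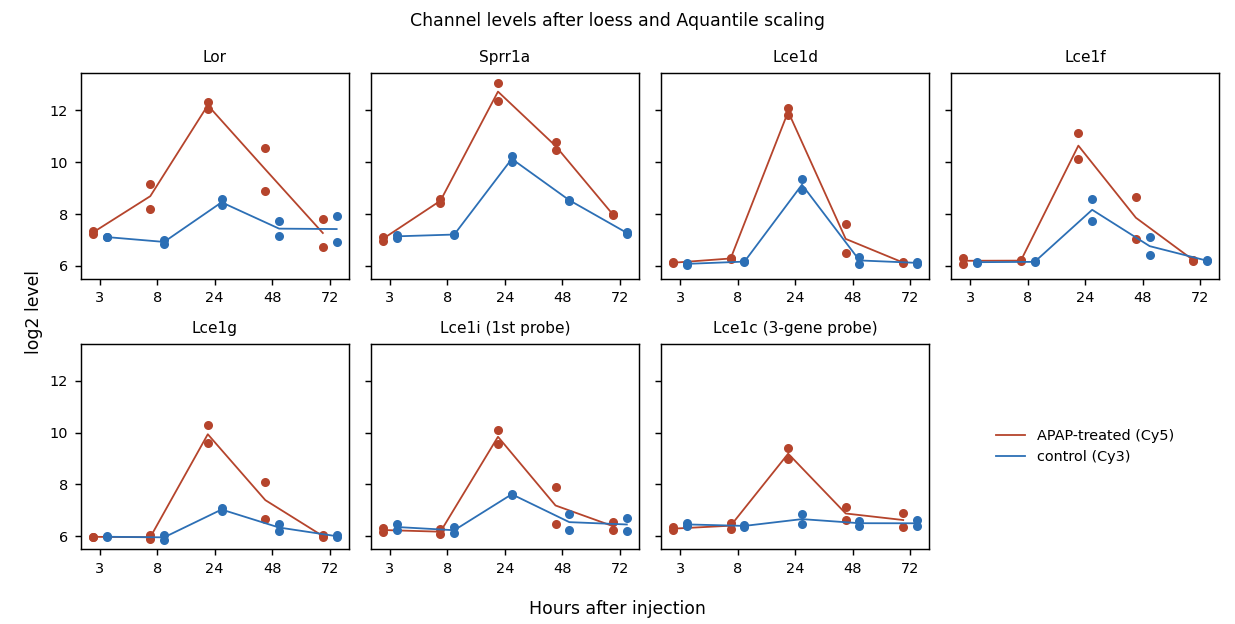
Log2 channel level after loess and Aquantile scaling (vertical axis) against hours after injection for 7 member probes, with APAP livers (Cy5) in red left of control livers (Cy3) in blue, 2 arrays each and lines through the means. At 24 h the control level of Sprr1a was 10.23 and 10.02, above its level of 7.19 and 7.09 at 3 h, while the APAP level was higher still. Levels of different probes cannot be compared.

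**Figure D4:**
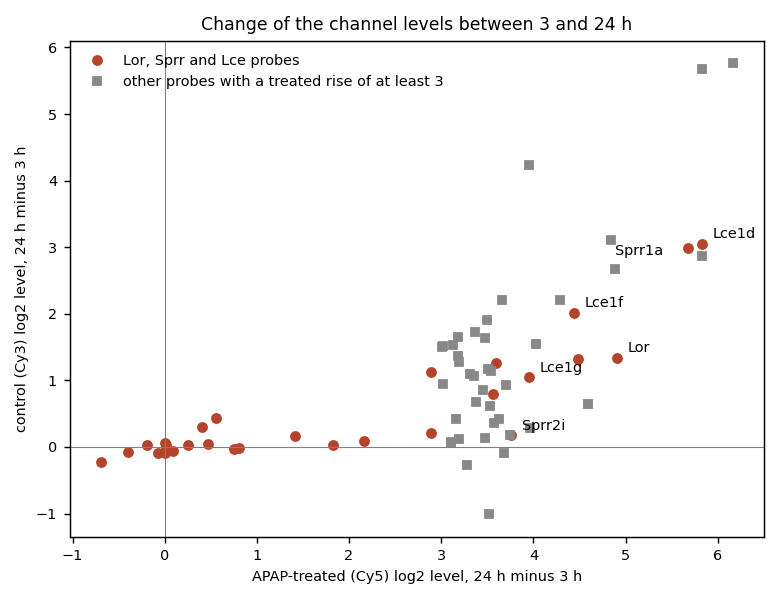
Change of the log2 level from 3 to 24 h in APAP livers (Cy5, horizontal axis) and in control livers (Cy3, vertical axis), for the Lor, SPRR and LCE probes (circles) and for the 40 other probes with a change of at least 3 in APAP livers (squares). Lce1d and Sprr1a stand at 3.05 and 2.99 on the control axis, and Sprr2i at 0.18. The APAP values of Lce1d, Lce1g and Sprr2i, and the control values of Lce1g and Sprr2i, are against a 3 h level not well above background.

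Other envelope genes were read from a further list. Of 13 kept probes of envelope scaffold and cross-linking genes, 1 rose and 1 fell at 24 h, and 4 rose and 3 fell at 48 h with limma. The shares over all probes were 7.53% higher and 12.1% lower at 24 h, and 19.3% higher and 14.1% lower at 48 h. Without the second 48 h array, 3 rose and 0 fell at 48 h. Tgm1, the transglutaminase that cross-links the envelope in keratinocytes, stood at -1.10 and -1.60 at 3 h (mean -1.35, SE 0.16, adjusted p = 0.00364) and at -0.60 and -0.92 at 24 h (mean -0.76, adjusted p = 0.0116). Ppl, which encodes the scaffold protein periplakin, was at 0.88 and 0.43 at 24 h (mean 0.65, adjusted p = 0.0314). Without the first 24 h array, 0 of these probes were called at 24 h. Crct1, a small cysteine-rich gene of the same region, was at 0.88 and -0.60 at 24 h (adjusted p = 0.835) and at 2.81 and 1.98 at 48 h (mean 2.39, SE 0.31, adjusted p = 0.000701). Cstb, a cathepsin inhibitor gene of the list, was at 0.91 and 2.33 at 48 h (mean 1.62, adjusted p = 0.00244). Its probe was well above background in control livers at every time point.

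Keratinocyte markers were read because Lor and the LCE genes are skin genes. Of 31 kept probes, 3 rose and 2 fell at 24 h, and 7 rose and 2 fell at 48 h, against the same shares of all probes as given for the envelope genes. The median log2 ratio was 0.03 at 24 h and 0.06 at 48 h. The log2 of their summed linear levels, in which the brightest probes weigh most, was 13.33 to 13.44 in APAP livers at 24 h. In control livers it was 13.12 to 13.55. At 48 h it was 14.15 to 14.16 in APAP livers and 13.01 to 13.12 in control livers, where Ly6d alone had a log2 ratio of 3.31 and 3.48 (mean 3.39, limma adjusted p = 0.00434, and 0.0544 without the second 48 h array). Without the first 24 h array, 2 keratinocyte probes were called at 24 h, 1 of them higher, and without the first or second 48 h array 5 and 4 were called at 48 h, 4 and 3 of them higher. Among the keratins of the list, the mean log2 ratios at 24 h were -0.02 for Krt1, 0.00 and 0.11 for the pair of Krt10 probes and 0.07 for Krt14. Those keratins were chosen after their values were seen. The probes that rose at 24 h were those of Aloxe3 (mean 0.81, limma adjusted p = 0.00666), Krt17 (mean 0.53, limma adjusted p = 0.02) and Krt5. Krt5 was at 0.91 and 0.47 (mean 0.69, limma adjusted p = 0.0046), and its mean at 48 h was 1.12 (limma adjusted p = 3e-04). The probes that fell at 24 h were a probe of Trp63 (mean -0.80, limma adjusted p = 0.00324) and that of Perp (mean -0.59, limma adjusted p = 0.0301). The other Trp63 probes stood at -0.11 and 0.08. In total 6 of 43 keratinocyte probes on the array were not well above background in either channel on any array. The part of keratinocytes in the Lor and LCE signals was not tested.

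The S100 genes of the same complex encode small calcium-binding proteins. Of 15 kept S100 probes, 5 rose and 2 fell at 24 h, and 10 rose and 4 fell at 48 h (4 and 3 without the first 48 h array). Of all probes, 7.53% rose and 12.1% fell at 24 h, and 19.3% rose and 14.1% fell at 48 h. S100a9 was at 4.56 and 1.75 at 24 h (mean 3.16, SE 0.53, limma adjusted p = 0.00382), and S100a8 was at 3.87 and 1.28 (mean 2.57, SE 0.49, limma adjusted p = 0.00686). Both are abundant in neutrophils, and 5 of 12 neutrophil probes rose at 24 h, these 2 included. The other 3 were Cxcr2, Lcn2 and Retnlg, while Camp, Ltf, Elane and Mmp9 were not called. The log2 of the summed neutrophil levels at 24 h was 15.24 to 15.65 in APAP livers and 14.28 to 14.74 in control livers. Csf3r, which was not called at 24 h, was the brightest of these probes, at 14.40 in APAP livers and 14.03 in control livers.

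Marker lists of other cells that the sample could hold moved as follows at 24 h with limma, where 7.53% of all probes rose and 12.1% fell. Of 17 cholangiocyte probes 3 rose, among them Krt23 (2.34 and 1.87, mean 2.11, adjusted p = 0.00207) and Sox9 (0.63 and 0.54, mean 0.58, adjusted p = 0.00559). Of 9 mesothelial probes 1 rose, a probe of Krt8 (2.85 and 0.88, mean 1.86, adjusted p = 0.0232). It was bright in control livers too (log2 level 13.13), the other Krt8 probe was not called, and the list median was -0.05. Of 20 macrophage probes 1 rose. The 2 arrays differed in sign for Marco (3.35 and -0.69), Lgals3 (2.31 and -1.12) and Lyz1 (1.57 and -1.17), which were not called. Of 17 hepatocyte probes 13 fell and 0 rose, with Cps1, a urea cycle gene, at -3.12 and -2.57 (mean -2.84, adjusted p = 0.000146). Without the first 24 h array, 0 cholangiocyte, 0 macrophage and 8 hepatocyte probes were called, and without the second, 3 macrophage and 2 mesothelial probes. The log2 of the summed cholangiocyte levels was 12.13 to 12.54 in APAP livers and 11.76 to 11.97 in control livers. For the summed hepatocyte levels it was 18.96 to 19.18 in APAP livers and 19.80 to 19.88 in control livers. The part of any of these cells in the member ratios was not tested.

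By their log2 ratios over the 10 arrays, the genes most like Lor among 5299 probes that varied over time by at least 1 were Fam105b, Adat3, Fhad1, Wdr73, Nop56, Bcl2l1, Sdcbp and Ikbkg, with Pearson correlations between 0.96 and 0.98. Their mean ratios were smaller: at 24 h Bcl2l1, an inhibitor of apoptosis, stood at 1.85 and Nop56, a nucleolar protein gene, at 1.27, while Lor stood at 3.74. Among the genes most like Sprr1a were Cdc34, Anxa7, Ywhag and Hsp90aa1, with correlations of 0.96 to 0.98. Of these, Hsp90aa1, a chaperone gene, had mean log2 ratios of -1.62 at 3 h and 0.99 at 8 h, then 2.90 at 24 h, and 1.22 by 48 h. None of the genes named here for their likeness belongs to the cornified envelope.

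Promoter sequences were matched for 8 of the 9 members, all but Lce1f, from RefSeq (GRCm38.p6), and the 250 bases before the annotated start were searched on both strands. The letters searched were TGANTCA for the AP-1 site, TGACNNNGC for the antioxidant response element and TATAAA for the TATA box. The promoters of Lor (chr3:92083143-92083392, minus strand) and Sprr1a (chr3:92485882-92486131, minus strand) are shown because these 2 members had log2 ratios above 1 at 8 h, with the AP-1 and TATA letters in capitals.
Lor promoter: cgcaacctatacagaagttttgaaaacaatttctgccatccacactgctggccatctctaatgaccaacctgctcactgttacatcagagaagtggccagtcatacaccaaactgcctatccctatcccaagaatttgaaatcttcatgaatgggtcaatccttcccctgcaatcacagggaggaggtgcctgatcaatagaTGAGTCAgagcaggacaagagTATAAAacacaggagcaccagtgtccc
Sprr1a promoter: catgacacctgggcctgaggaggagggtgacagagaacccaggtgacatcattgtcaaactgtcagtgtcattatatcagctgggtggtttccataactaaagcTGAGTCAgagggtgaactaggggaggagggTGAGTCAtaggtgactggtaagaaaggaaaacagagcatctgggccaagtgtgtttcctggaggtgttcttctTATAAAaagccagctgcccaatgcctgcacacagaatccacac
The AP-1 letters begin 48 bases before the start in Lor and 146 and 116 bases before it in Sprr1a. The farther Sprr1a match also overlaps antioxidant response letters read on the other strand, which begin 148 bases before the start. In Sprr1b the AP-1 letters begin 111 bases before the start.

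In all, 3 of 8 member promoters held AP-1 letters, 2 held antioxidant response letters (Sprr1a and Lce1d) and 4 held TATAAA. Over all 32851 promoters of the same length the shares were 6.75%, 10.2% and 12.4%, and 0.39% held AP-1 and antioxidant response letters that overlap. Of the 22 promoters of other SPRR and LCE genes, 7 held AP-1 letters, 2 antioxidant response letters and 9 TATAAA. Those 7 were all SPRR2 genes. They included Sprr2i and Sprr2f, which rose at 24 h, Sprr2e, which rose at 48 h, Sprr2d, which was not called at any time, and Sprr2b, Sprr2h and Sprr2k, whose probes were not kept.

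The promoters of Lce1d, Lce1g and Lce1i, which peaked at 24 h, held no AP-1 letters in this window. The last 60 bases before the start of Lce1c (chr3:92679187-92679246, plus strand), Lce1d (chr3:92687211-92687270, minus strand), Lce1g (chr3:92752339-92752398, minus strand) and Lce1i (chr3:92778900-92778959, minus strand) are shown because 42 of 60 bases are identical in all 4, with TATAAA in capitals.
Lce1c promoter: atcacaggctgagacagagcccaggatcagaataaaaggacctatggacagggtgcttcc
Lce1d promoter: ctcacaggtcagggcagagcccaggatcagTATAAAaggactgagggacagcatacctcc
Lce1g promoter: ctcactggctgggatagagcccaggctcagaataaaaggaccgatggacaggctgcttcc
Lce1i promoter: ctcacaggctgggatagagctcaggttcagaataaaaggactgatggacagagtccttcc
At 24 h the mean log2 ratios were 0.05 on the Lce1c-only probe, against 2.81 for Lce1d, 2.90 for Lce1g and 2.22 for Lce1i.

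Across the series, 44.7% to 75.9% of probes per array were well above background in the APAP channel and 59.7% to 83.7% in the control channel. The Sprr1b and Sprr2a1 probes lay near or under that limit, as did most LCE member probes at 3, 8 and 72 h. No member spot was saturated. The log2 ratios of the 2 arrays of a time point correlated at 0.67, 0.80, 0.83, 0.86 and 0.24 over 29623 probes in time order from 3 h to 72 h, so that the 72 h values rest on arrays that were least alike.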

How the data were processed

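Per the labels' protocols, liver RNA was labelled with Cy3 (control) and Cy5 (APAP), and per the file headers spot values came from Agilent Feature Extraction 10.7.3.1, with probes placed on mm9. The deposited files give mean and background intensity per channel on a linear scale, the log10 ratio of Cy5 over Cy3 from the scanner software, and flags. The authors' deposited value table is a score whose scale no label states. Set against the arrays it was 1.443 times the log10 ratio (correlation 1, median 0, 7.25% to 25.5% of values exactly 0), and was used as an alternative.

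The members and lists were chosen with earlier results of these data known. Intensities were corrected with normexp (offset 50) after 12604 local backgrounds that the software marked as outliers were replaced by the array's median, a step chosen after seeing the data because normexp otherwise failed on 4 arrays (for example, a corrected Cy5 median of 665 in place of 74.0 on an array of 72 h). Log2 ratios were loess-normalized within arrays in limma 3.58.1 (R 4.3.3), without 1377 control spots, and 2718 outlier spots were left out. Probes well above background in a channel on both arrays of a time point were kept (29623 of 39429). Channel levels were scaled by Aquantile. Ratios and control levels were fitted with a coefficient per time point (5 residual degrees of freedom), with eBayes and Benjamini-Hochberg adjustment over all kept probes at 0.05. The fits were tested on simulated data. A probe not well above background in a channel of a time point allows no more than a lower limit of the fold, written "at least", which is open to dye bias.

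All member probes were named. Of other lists, up to 4 called probes with the largest ratio were picked. Some of these, such as S100a6, S100a4, Spp1, Slc4a2 and Muc16, are not reported here. The 8 genes most like Lor and the 5 most like Sprr1a were taken by Pearson correlation of log2 ratios, and 1 of them is not reported here. Probes named beyond this rule (Lce1b, Lce1a1, Lce1a2, Lce1k, Lce1l, Lce1m, Sprr2a2, Krt1, Krt10, Krt14, Krt17, Perp, the other Trp63 probes, Cxcr2, Camp, Ltf, Elane, Mmp9, Csf3r, and the genes set beside the control differences) were chosen after their values were seen. The alternatives were other background corrections, median centring, the software's and the authors' ratios, other filters, slide and scan as blocks, the replicate number as a block, and each array left out. Slides and scan days are those of the file headers, with 4 slides and 2 scan days, and each time point has an array on each scan day. Treated-mouse numbers do not pair the samples: over 6 pairs of time points, the deviations of the mouse 1 arrays correlated at -0.08 to 0.31, with 4 of 6 above 0.1, where every pair was required. The higher number of each time point is also the array of the second scan day. The exon or UTR position of the probes was not analysed here.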

Additional observations from a re-analysis of the deposited data

Results flagged for a closer look

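Differences between neighbouring time points passed limma's test of the difference in log2 ratio itself for several genes of the other lists (steps called over all probes: 1.76% from 3 to 8 h, 11.6% from 8 to 24 h, 13.7% from 24 to 48 h and 21.9% from 48 to 72 h). Steps from or to a time point at which neither channel was well above background on either array are left out. Sprr2i and Lce1h passed the filter only through times at which they were high, so their p-values here describe kept probes. Sprr2i differed by -2.37 at 48 h minus 24 h (adjusted p = 0.0024), where its control channel was not well above background at 48 h. Sprr2f differed by 0.76 at 24 h minus 8 h (adjusted p = 0.0351).

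Lce3c differed by 3.03 at 24 h minus 8 h (adjusted p = 0.00111) and by -2.63 at 72 h minus 48 h (adjusted p = 0.00126), and Lce3b by 2.54 and -1.81 over the same steps (adjusted p = 0.00175 and 0.00433). The step of 48 h minus 24 h did not pass for either (adjusted p = 0.233 and 0.0975). Lce1e differed by 1.51 at 24 h minus 8 h (adjusted p = 0.000752) and by -1.55 at 48 h minus 24 h (adjusted p = 0.00137). Lce1h differed by -1.07 at 48 h minus 24 h (adjusted p = 0.0243), where its control channel was not well above background at 48 h. Crct1 differed by 2.25 at 48 h minus 24 h and by -2.29 at 72 h minus 48 h (adjusted p = 0.0137 and 0.00812), and Cstb by -1.78 at 72 h minus 48 h (adjusted p = 0.0132).

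Among member probes with a mean log2 ratio of at least 1 at either time, 3 had both arrays on opposite sides of 0 at neighbouring time points, with differences that were not tested. These were -2.44 for Lor at 72 h minus 48 h, 1.40 for Sprr1a at 8 h minus 3 h and 2.27 for the brighter Lce1i probe at 24 h minus 8 h.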

How the results depend on the processing

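Over 12 settings other than leaving out an array, the mean log2 ratio at 24 h lay between 3.11 and 4.13 for Lor and between 1.93 and 2.73 for Sprr1a. Filters and blocks do not enter a mean ratio, and the authors' table is the software's ratio on another scale. Such ranges thus come from background corrections, median centring and the software's ratio. The ends were median centring (3.11 and 1.93) and, for Lor, the software's ratio and the authors' table (4.13 each). The report gives these ranges for the LCE members, the widest being 1.25 to 3.49 for the dimmer Lce1i probe, and for Sprr1b the range was 0.16 to 1.98. Median centring moved the median of all probes to -0.22 at 3 h and -0.11 at 24 h, and its calls at 3, 8, 24, 48 and 72 h were 38, 183, 1111, 2516 and 0 (9, 126, 242, 2097 and 0 of them higher). The calls given in the report's setting were 1497, 4619, 5814, 9898 and 4 (663, 2184, 2232, 5731 and 2 higher). Member probes then called higher were 0 at 8 h and 2 at 48 h. A filter on both channels of every array left 1 member probe called higher at each of 8, 24 and 48 h, and 0 other SPRR and 0 other LCE probes at 24 h, since most of these probes were not tested. The software's ratio and the authors' table gave 2826 and 2825 calls at 8 h, the slide as a fixed block 922 at 3 h, and kept outlier backgrounds 2988 at 24 h, with 1 other SPRR and 3 other LCE probes.

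At 72 h the calls were 2 without background correction, 7 with offset 0, 1 with the software's ratio, 1 with the authors' table, 8 with the filter on both channels, 10 with the scan block, and 0 with the replicate block, the slide as a fixed block or kept outlier backgrounds. Without single arrays, calls were 481 to 1611 at 3 h, 976 to 4761 at 8 h, 2154 to 5974 at 24 h, 5597 to 10252 at 48 h and 0 to 268 at 72 h. Member calls were 1 to 2 at 8 h, 8 to 9 at 24 h, 3 to 7 at 48 h and 0 at 3 and 72 h. Lor at 24 h was 3.48 to 4.0 and Sprr1a 2.35 to 2.84. Without the second 48 h array 3 member probes were called at 48 h.

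Calls of the control F test, 738 in the report, were 192 with offset 0, 420 with no filter, 1948 with the scan block, 2478 with the replicate block, 15 with the slide as a fixed block, 1172 with kept outlier backgrounds and 2684 in raw Cy3 signal. Member probes past it, 4 in the report, were 6 with the scan block and 6 with the replicate block (also 6 higher at 24 h with each), 1 with the slide as a fixed block and 2 with kept outlier backgrounds, and 3 were higher at 24 h in raw Cy3 signal. Without single arrays these counts were 60 to 616 over all probes, 2 to 5 members past the F test and 2 to 6 members higher at 24 h. The control difference of Lor, 1.34 with an adjusted p of 0.0777 in the report, had an adjusted p of 0.024 with the scan block and 0.0332 with the replicate block, and ranged from 1.22 to 1.45 without single arrays. Under all 18 alternatives Sprr1a and Lce1d were called higher in control livers at 24 h, with Sprr1a at 2.88 to 3.09 without single arrays. The control difference of the Lce1c-only probe, -0.0081, turned to 0.043 with the slide as a fixed block, 0.019 with kept outlier backgrounds, 0.15 without the second 3 h array and 0.13 without the first 24 h array (-0.16 to 0.15 without single arrays). That of the dimmer Lce1i probe, 0.08, was -0.069 without the second 3 h array (-0.069 to 0.23 without single arrays). The replicate block, for numbers that do not pair the samples, left the control differences of Lor and Sprr1a at 1.34 and 2.99. This was fixed in advance, since the 3 h and 24 h arrays hold the same replicate numbers. The slide as a fixed block, the raw Cy3 signal and the kept outlier backgrounds were added after seeing the data. The cause of these changes was not tested. Dim signal over background limits Sprr1b, Sprr2a1 and most LCE member probes at 3, 8 and 72 h.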
